A study of Homo sapiens with 6 samples.

Results

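Iron enters most human cells on the transferrin receptor, is stored in ferritin and is metered by a small set of sensor proteins. The 10 genes described here cover those steps: TFRC and SLC11A2 for uptake, FTH1, FTL and NCOA4 for storage and release, IREB2, ACO1 and FBXL5 for sensing, SLC40A1 for export and HMOX1 for recovery of iron from heme. They are 10 of the 36601 genes in the deposited matrices, and all of them were among the 16763 genes that had enough counts to be tested. They were selected on a result of these data: TFRC had the smallest p-value of all tested genes for E6R against DMSO, and the other 9 are listed genes of iron handling. The values of that comparison are therefore given below as a description, with no test.

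The established line SK-N-BE(2)-C, a human neuroblastoma, was used throughout, so all groups share 1 genetic background. There were 6 single-cell libraries, 2 for each of 3 treatments: DMSO as solvent control, TSA and E6R. TSA commonly stands for trichostatin A, which blocks the catalytic site of histone deacetylases (HDACs), and E6R is a compound known here only by this code. The series concerns inhibition of the HDAC complex without blocking the enzyme, and sets that against an enzymatic inhibitor. The sources used here give no dose, no treatment time and no structure of E6R, so the treatments are compared as given and not at matched doses. Nothing in the labels says that the 2 libraries of a treatment came from separate cultures, so p-values measure only the spread between these libraries, which may be technical.

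Cells control iron largely after transcription. When iron is scarce, the iron regulatory proteins encoded by ACO1 and IREB2 bind a short RNA hairpin, the iron-responsive element, in a few messenger RNAs. Binding in the 5′ UTR holds back translation of ferritin and of the exporter ferroportin, while binding in the 3′ UTR protects the TFRC message from decay. FBXL5 is the iron-sensing subunit that marks the IREB2 protein for degradation, and NCOA4 delivers ferritin to the lysosome so that its iron is released. Message counts report the TFRC arm of this control more directly than the ferritin arm, because the ferritin element acts on translation.

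The elements are shown because they are the feature through which several of these messages are read by the same sensors. They were searched for in GENCODE 29 transcripts (GRCh38) on the transcript strand only, as CNNNNNCAGTGN followed by 5 bases that pair with the 5 bases between the first C and the loop, G-U pairs allowed. Capitals mark the bulged C and the 6-base loop of each hairpin. Each line gives the gene, the UTR and the position of the 29 printed bases.

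FTH1, 5′ UTR, chr11:61967574-61967602, minus strand: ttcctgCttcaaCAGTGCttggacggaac
FTL, 5′ UTR, chr19:48965335-48965363, plus strand: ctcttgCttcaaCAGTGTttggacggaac
SLC40A1, 5′ UTR, chr2:189580661-189580689, minus strand: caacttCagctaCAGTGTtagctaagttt
TFRC, 3′ UTR, chr3:196050979-196051007, minus strand: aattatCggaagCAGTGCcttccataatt
TFRC, 3′ UTR, chr3:196050575-196050603, minus strand: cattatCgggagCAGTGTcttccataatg
TFRC, 3′ UTR, chr3:196050510-196050538, minus strand: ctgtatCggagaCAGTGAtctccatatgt
TFRC, 3′ UTR, chr3:196050463-196050491, minus strand: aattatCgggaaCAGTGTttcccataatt

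TFRC held 4 such hairpins in its 3′ UTR, and FTH1, FTL and SLC40A1 held 1 each in the 5′ UTR. Of 19702 protein-coding genes, each by its longest transcript, 13172 (66.9%) held the letters alone and 260 (1.32%) held them with all 5 stem pairs. TFRC had the most matches of any gene, and 2 genes had 3 or more. A match describes the sequence and was not tested for binding. The search required this exact loop and all 5 stem pairs, so a hairpin that departs from either was not found. The lack of a match in SLC11A2 and the other members therefore does not show that they lack an element.

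Cells were barcodes with at least 500 genes and at most 20% of unique molecular identifiers (UMIs) from mitochondrial genes. There were 17589 of them, 1861 to 3946 per library, with median depths of 1054 to 1880 UMIs. Adding up the UMIs of a library's cells gave 4206366 to 26180262 per library, and levels are UMIs per 1000000 (CPM) of that sum after TMM scaling. The 2 DMSO sums were the shallowest. Mitochondrial genes took 5.83% and 6.20% of UMIs under DMSO, 6.08% and 9.71% under TSA, and 1.55% and 1.51% under E6R. The deepest 1% of cells held 22.5% of all UMIs in E6R replicate 2, against 8.77% to 15.6% elsewhere. Libraries shared between 11 and 58 cell barcodes in pairs, at most 2.11% of the smaller library.

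The label was checked against markers. Of 9 adrenergic neuroblastoma genes, 6 were above 10 CPM in every library, and so were 4 of 9 mesenchymal neuroblastoma genes. The mesenchymal sum was 776 and 1255 CPM under DMSO, 2220 and 3345 under TSA, and 1347 and 2164 under E6R. Most of it was VIM, and without VIM the sum was 79.9 and 278 CPM under DMSO, 460 and 505 under TSA, and 104 and 512 under E6R, so the E6R and DMSO libraries then overlapped. The adrenergic sum was 933 and 1415 CPM under DMSO, 650 and 734 under TSA, and 949 and 2030 under E6R. Of 12 markers of leukocytes, erythroid, endothelial, epithelial and liver cells, none exceeded 10 CPM in every library and none was at 0 in every library. In single libraries 3 did exceed it: PECAM1 in DMSO replicate 1 (21.7 CPM) and E6R replicate 1 (27.7 CPM), VWF in the same libraries (10.8 and 11.1 CPM) and ALB in DMSO replicate 2 (11.1 CPM). Their summed level was 24.3 and 34.6 CPM under DMSO, 6.4 and 13.7 under TSA, and 3.0 and 42.8 under E6R. The part of these differences in the results on iron genes was not tested.

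TFRC (ENSG00000072274, GRCh38 chromosome 3, 196027183 to 196082189, minus strand) encodes transferrin receptor 1, which carries transferrin-bound iron into the cell. It measured 55.7 and 47.4 CPM in the DMSO libraries, 198 and 262 CPM under TSA, and 314 and 385 CPM under E6R. The 3 groups did not overlap, and their order was DMSO, TSA, E6R. The mean was 51.5 ± 5.82 CPM under DMSO (SD, n = 2 here and for every mean below), 230.0 ± 45.8 under TSA and 349 ± 50.6 under E6R.

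Under TSA the TFRC level was 4.46-fold that of DMSO (fitted log2 fold change 2.16, SE 0.24, adjusted p = 0.00126 in the edgeR quasi-likelihood test). That comparison shares the DMSO libraries with the comparison that chose the gene. TFRC passed the threshold of 0.05 in all 19 alternative analyses of TSA against DMSO. Under E6R the level was 6.78-fold that of DMSO (log2 fold change 2.76, SE 0.24), the value on which the gene was selected. Without mitochondrial and ribosomal protein genes the E6R value was 2.77, and without the 5% of cells with most UMIs it was 2.67. E6R against TSA, which uses the same E6R libraries, gave 0.60 on the log2 scale with an unadjusted 95% interval from 0.09 to 1.12. Its edgeR adjusted p of 0.0652 did not pass the threshold, and it did so in 7 of 19 alternatives, the replicate block among them (edgeR adjusted p = 0.0382). TFRC is also abundant in red cell precursors, and the erythroid markers HBB and HBA1 each held at most 12 UMIs in any library.

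SLC11A2 (ENSG00000110911, chromosome 12, 50979401 to 51028566, minus strand) encodes DMT1, the transporter that moves ferrous iron out of the endosome after TFRC has delivered it. Its level was 38.2 and 30.8 CPM under DMSO, 23.8 and 23.8 CPM under TSA, and 44.1 and 63.7 CPM under E6R. The TSA libraries lay below all others and the E6R libraries above all others. E6R exceeded TSA 2.27-fold (log2 1.18, SE 0.25, edgeR adjusted p = 0.00807). That call was lost in 2 of 19 alternatives, without TSA replicate 1 (adjusted p = 0.0614 in edgeR) and without TSA replicate 2 (0.0683). TSA against DMSO gave a log2 value of -0.54 (SE 0.25, edgeR adjusted p = 0.143), which did not pass, and E6R against DMSO gave 0.64 (SE 0.25). The uptake genes therefore differed in order: TFRC was lowest under DMSO and SLC11A2 was lowest under TSA.

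**Figure D1:**
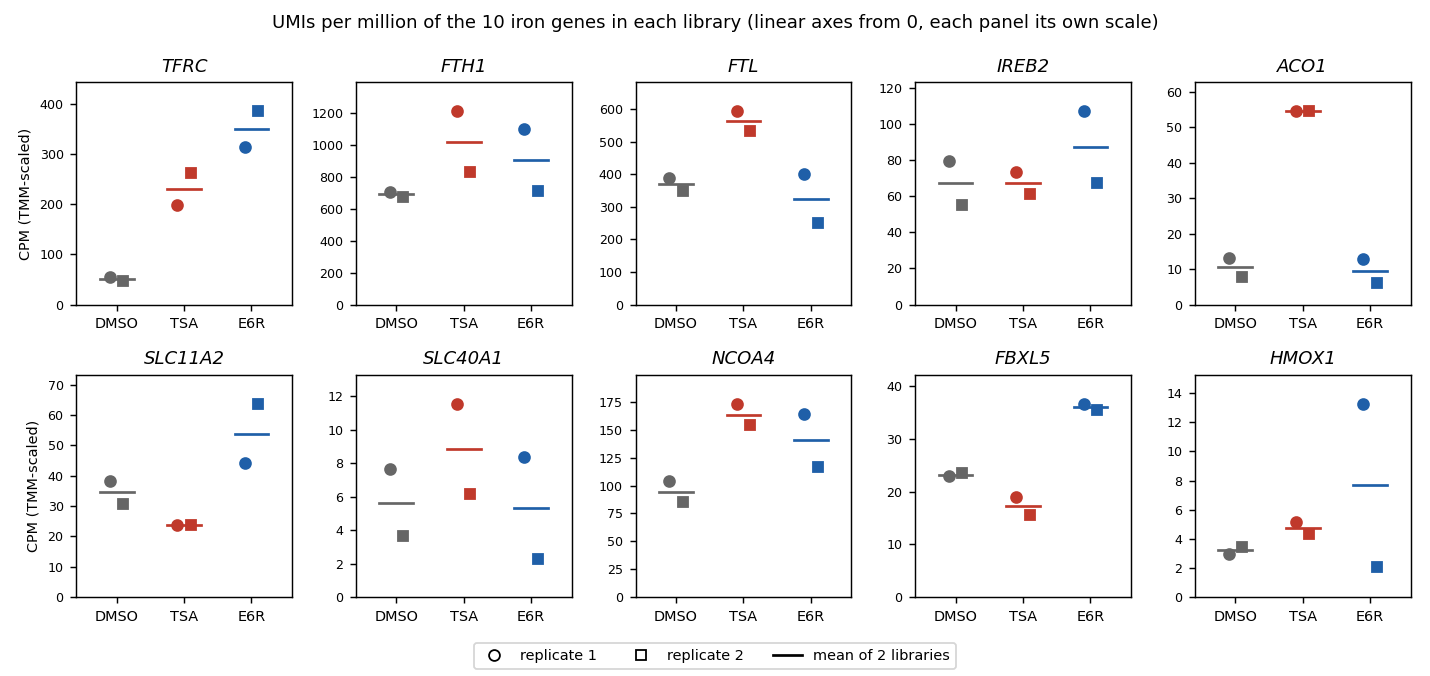
Level of each of the 10 iron genes (vertical axes, CPM after TMM scaling, each panel from 0 on its own scale) in the 2 libraries of each treatment; circles are replicate 1, squares replicate 2 and lines the mean of both. TFRC is separated in all 3 groups, and ACO1 is at 54.5 and 54.4 CPM in the TSA libraries and at most 13.2 CPM in the other libraries.

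Ferritin is a shell of heavy chains, from FTH1, which oxidise iron, and light chains, from FTL, which help its core to form. FTH1 (ENSG00000167996, chromosome 11, 61959718 to 61967660, minus strand) measured 704 and 675 CPM under DMSO, 1210.0 and 831 CPM under TSA, and 1098 and 711 CPM under E6R. On this TMM scale all 4 treated libraries were above both DMSO libraries. The treated replicates were far apart, with SDs of 268 and 274 CPM against 20.3 under DMSO. The separation depended on the scaling. In plain CPM of the same cells, TSA replicate 2 (716) and E6R replicate 2 (722) were below both DMSO libraries (788 and 736). Neither TSA against DMSO (log2 0.57, SE 0.28, edgeR adjusted p = 0.161) nor E6R against TSA (-0.17, SE 0.28, adjusted p = 0.645) passed the threshold. E6R against DMSO was 0.39 (SE 0.28).

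FTL (ENSG00000087086, chromosome 19, 48965301 to 48966878, plus strand) measured 388 and 350 CPM under DMSO, 593 and 534 CPM under TSA, and 399.8 and 250.2 CPM under E6R. The TSA libraries were above every other library, and the E6R libraries fell on both sides of DMSO. TSA exceeded E6R 1.73-fold (log2 E6R minus TSA -0.79, SE 0.25, edgeR adjusted p = 0.0399). This call was lost in 11 of 19 alternatives, with adjusted p up to 0.182 without TSA replicate 1 and without E6R replicate 2. TSA against DMSO gave 0.61 (SE 0.25, edgeR adjusted p = 0.105). It passed in 3 of 19 alternatives, with the replicate block (edgeR adjusted p = 0.0410) and without E6R replicate 1 (0.0372) or 2 (0.0438). E6R against DMSO gave -0.18 (SE 0.25). GENCODE 29 lists 25 pseudogenes of FTH1 and 16 of FTL, none of which is a row of the matrices, so reads shared with those copies make both ferritin levels uncertain.

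The ratio of FTL to FTH1 UMIs does not depend on library scaling. It was 0.551 and 0.518 under DMSO, 0.490 and 0.642 under TSA, and 0.364 and 0.352 under E6R. Both E6R libraries were below all 4 others, while the TSA libraries lay on both sides of DMSO. The log2 ratio was lower under E6R by 0.648 than under TSA (exact two-sided permutation p = 0.333, the smallest that 2 against 2 can give). E6R minus DMSO was -0.578, and TSA minus DMSO was 0.070 (exact permutation p = 1). The TSA difference turned to -0.125 without TSA replicate 2.

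**Figure D2:**
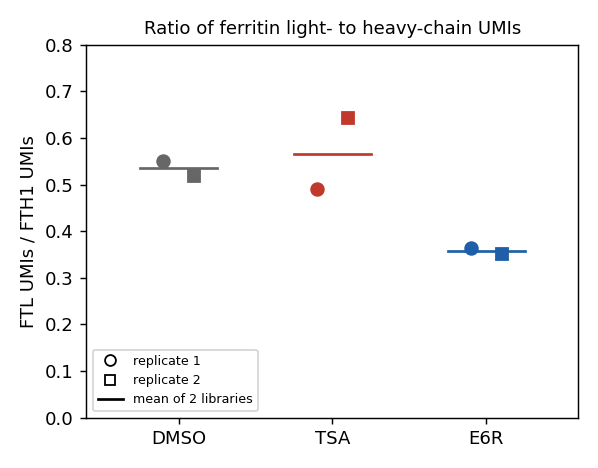
Ratio of FTL to FTH1 UMIs (vertical axis, no unit) summed over the cells of each library, by treatment; each point is 1 library. The E6R libraries, at 0.364 and 0.352, sit below the TSA and DMSO libraries.

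NCOA4 (ENSG00000266412, chromosome 10, 46005088 to 46030714, minus strand), the ferritin cargo receptor, measured 104 and 84.9 CPM under DMSO, 173 and 154 CPM under TSA, and 164 and 117 CPM under E6R. Both treated groups lay above DMSO, and they overlapped each other. TSA exceeded DMSO 1.73-fold (log2 0.79, SE 0.23, edgeR adjusted p = 0.0355). That call was lost in 7 of 19 alternatives. Leaving out any of the 4 DMSO and TSA libraries ended it, with adjusted p in edgeR of 0.0736 and 0.224 without DMSO replicates 1 and 2, and 0.168 and 0.108 without TSA replicates 1 and 2. E6R against DMSO was 0.57 (SE 0.23), and E6R against TSA was -0.22, with a 95% interval from -0.75 to 0.30. NCOA4 has 3 pseudogenes in GENCODE 29 that are not rows of the matrices.

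Among the sensors, ACO1 changed most. ACO1 (ENSG00000122729, chromosome 9, 32384603 to 32454769, plus strand) encodes iron regulatory protein 1, which acts as a cytosolic aconitase when it holds an iron-sulfur cluster and binds the hairpins printed above when it does not. It measured 13.2 and 7.84 CPM under DMSO, 54.5 and 54.4 CPM under TSA, and 13.0 and 6.21 CPM under E6R, from 62 and 41, 717 and 625, and 205 and 165 UMIs. Both TSA libraries were above all others, and the E6R libraries overlapped the DMSO libraries. ACO1 rose 5.18-fold under TSA against DMSO (log2 2.38, SE 0.40, edgeR adjusted p = 0.00518). It was 5.68-fold higher under TSA than under E6R (log2 E6R minus TSA -2.52, SE 0.39, adjusted p = 0.00241). Both calls held in all 19 alternatives, with adjusted p up to 0.0440 and 0.0254. E6R against DMSO was -0.14 (SE 0.40), with a 95% interval from -1.06 to 0.78.

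IREB2 (ENSG00000136381, chromosome 15, 78437431 to 78501456, plus strand), which encodes iron regulatory protein 2, measured 79.2 and 55.1 CPM under DMSO, 73.2 and 61.0 CPM under TSA, and 107 and 67.4 CPM under E6R. The groups overlapped. TSA against DMSO was 0.00 on the log2 scale (SE 0.28, edgeR adjusted p = 0.999, 95% interval -0.65 to 0.65), and E6R against TSA was 0.37 (SE 0.28, adjusted p = 0.319). Under TSA the interval runs from 0.636-fold to 1.57-fold, so the data do not show that IREB2 was the same. The 2 genes for iron regulatory proteins thus had different patterns, one called under TSA and the other not, and the difference between them was not itself tested.

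FBXL5 (ENSG00000118564, chromosome 4, 15604539 to 15681679, minus strand) measured 22.9 and 23.5 CPM under DMSO, 18.9 and 15.7 CPM under TSA, and 36.7 and 35.4 CPM under E6R. The replicates were close, and the 3 groups did not overlap, with TSA lowest and E6R highest. FBXL5 was 2.09-fold higher under E6R than under TSA (log2 1.06, SE 0.22, edgeR adjusted p = 0.00779). The call was lost in 2 of 19 alternatives, without TSA replicate 2 (edgeR adjusted p = 0.0871) and with cells thinned to 1000 UMIs (0.0788). TSA against DMSO was -0.43 (SE 0.23, edgeR adjusted p = 0.187), and E6R against DMSO was 0.63 (SE 0.22).

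SLC40A1 and HMOX1 were at low levels in every library. SLC40A1 (ENSG00000138449, chromosome 2, 189560579 to 189583758, minus strand), the iron exporter ferroportin, measured 7.65 and 3.63 CPM under DMSO, 11.5 and 6.18 CPM under TSA, and 8.34 and 2.30 CPM under E6R. HMOX1 (ENSG00000100292, chromosome 22, 35380361 to 35394214, plus strand), the inducible heme oxygenase, measured 2.97 and 3.44 CPM under DMSO, 5.17 and 4.35 CPM under TSA, and 13.3 and 2.07 CPM under E6R. The SLC40A1 groups overlapped, and the HMOX1 mean under E6R, 7.67 ± 7.92 CPM, was carried by replicate 1. Against DMSO, TSA gave log2 values of 0.66 for SLC40A1 (SE 0.68, edgeR adjusted p = 0.487) and 0.57 for HMOX1 (SE 0.79, edgeR adjusted p = 0.614). E6R gave -0.09 (SE 0.68) and 1.24 (SE 0.79). E6R against TSA passed for SLC40A1 without E6R replicate 1 (edgeR adjusted p = 0.0334) and for HMOX1 without E6R replicate 2 (0.0154), so in each case 1 library decided the call.

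**Figure D3:**
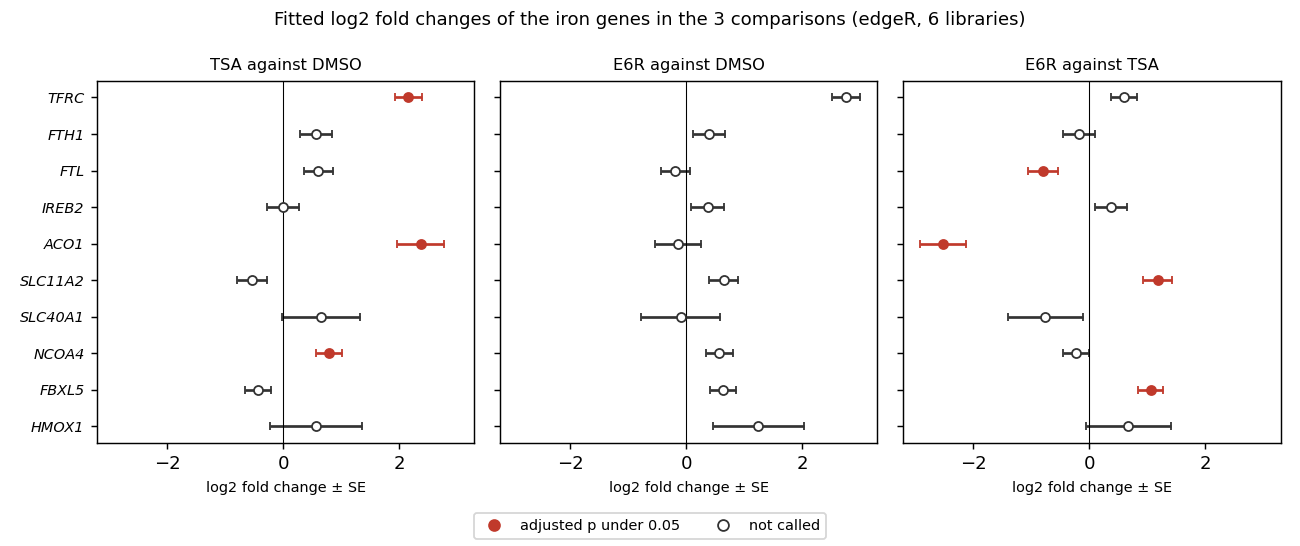
Fitted log2 fold change (horizontal axis) of each iron gene in TSA against DMSO, E6R against DMSO and E6R against TSA; bars are 1 standard error and filled points passed an adjusted p of 0.05 in edgeR. TFRC and ACO1 stand farthest from 0 under TSA, and ACO1 lies near 0 under E6R against DMSO.

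Counted together, 3 of the 10 genes passed for TSA against DMSO, all higher under TSA: TFRC, ACO1 and NCOA4. Of all genes tested, 29.7% passed, so the share among the iron genes was near the background. Both TSA libraries lay above both DMSO libraries for 6 genes and below them for 2, a separation seen in 71.3% of all genes tested. For E6R against DMSO, 0 of the 10 passed in edgeR, and 0% of all genes did. Groups did not overlap for 5 of the 10, all higher under E6R, against 47.3% of all genes. Those counts come from the comparison on which the genes were selected, and nothing is read from them. For E6R against TSA, 4 passed, FBXL5 and SLC11A2 higher and ACO1 and FTL lower under E6R, against 38.2% of all genes. Groups did not overlap for 5, against 72.6%. The median log2 value of the 10 genes was 0.59 for TSA against DMSO, where all genes tested had -0.01, 0.48 for E6R against DMSO (all genes 0.03) and 0.10 for E6R against TSA (all genes -0.09). Scaling by total counts alone shifted the all-gene medians to -0.32, -0.10 and 0.08. These 3 comparisons share libraries in pairs.

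The same levels were read cell by cell, as the share of cells with at least 1 UMI after each cell was thinned to 1000 UMIs. Shallower cells were left out, 2124 of them under DMSO, 1118 under TSA and 2410 under E6R. TFRC was found in 6.23% and 4.52% of DMSO cells, 12.5% and 17.0% of TSA cells, and 22.1% and 28.0% of E6R cells. The Wilson 95% interval, which covers counting error only, was 3.63% to 5.62% in DMSO replicate 2 and 26.2% to 29.9% in E6R replicate 2. The group order was that of the CPM, and the groups did not overlap. TSA against DMSO gave an exact two-sided permutation p of 0.333, the smallest possible. Without thinning, the TFRC shares were 10.6% and 7.09%, 33.0% and 36.8%, and 45.7% and 42.5%.

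Each library's background for these shares was taken as its highest share among the 12 markers of other cell types, in the same thinned cells. It was 2.11% and 0.773% under DMSO, 0.486% and 0.287% under TSA, and 2.36% and 0.224% under E6R. PECAM1 set it in DMSO replicate 1 and E6R replicate 1, so it is not a uniform level. FTH1 was found in 44.3% to 62.5% of cells and FTL in 19.9% to 39.5%, both far above it in every library. The FTH1 shares were 53.7% and 51.7% under DMSO, 61.6% and 47.3% under TSA, and 62.5% and 44.3% under E6R. Replicate 2 of each treatment was thus below both DMSO libraries, unlike in TMM-scaled CPM. FTL was lowest in the E6R libraries, at 31.5% and 19.9%, against 36.4% and 32.8% under DMSO and 39.5% and 34.9% under TSA. NCOA4 was found in 9.94% and 9.39% of DMSO cells, 13.1% and 11.04% of TSA cells, and 15.1% and 9.70% of E6R cells, so both TSA libraries lay above both DMSO libraries and the E6R libraries overlapped both groups. IREB2 was found in 7.41% and 4.88% of DMSO cells, 5.51% and 4.30% of TSA cells, and 9.14% and 6.28% of E6R cells, and only TSA and E6R did not overlap.

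The rarer genes came closer to that background. ACO1 was well above it under TSA, at 4.43% and 4.05%, below it in both DMSO libraries and E6R replicate 1, at 0.713% to 1.52%, and above it in E6R replicate 2, at 0.673%. SLC11A2 was above it in every library, at 3.96% and 3.51% under DMSO, 1.67% and 1.94% under TSA, and 3.64% and 6.64% under E6R, with TSA below the other groups. FBXL5 was at it in DMSO replicate 1, at 2.11%, and above it in the other libraries, with 3.41% and 3.14% under E6R as the highest. SLC40A1 was above it under TSA, at 1.13% and 0.538%, and at or below it elsewhere. HMOX1 was above it in TSA replicate 2, at 0.394%, and at or below it elsewhere.

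**Figure D4:**
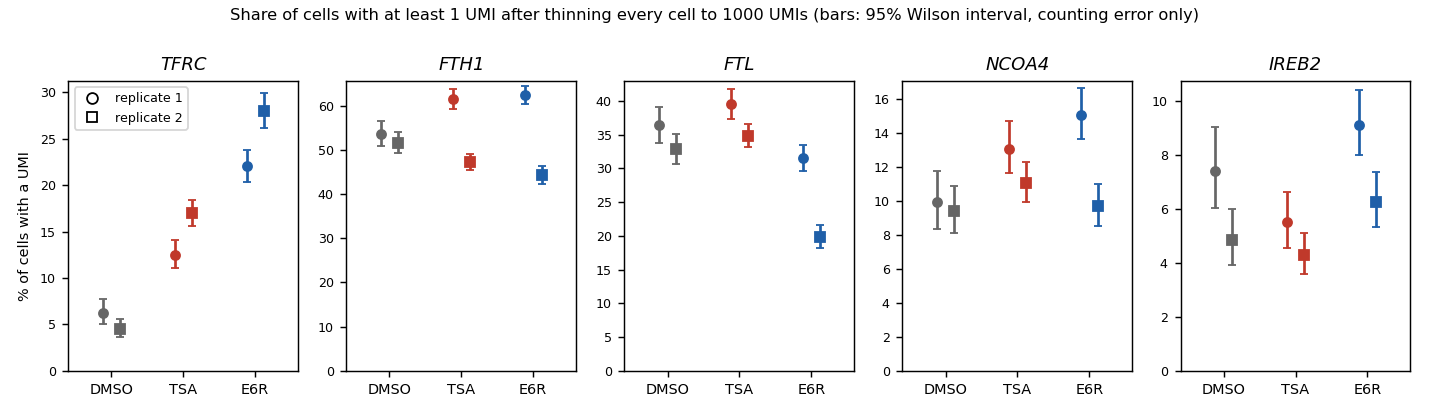
Share of cells with at least 1 UMI of a gene (vertical axis, percent) after thinning to 1000 UMIs, by library and treatment. The genes shown are TFRC, FTH1, FTL, NCOA4 and IREB2. Bars are Wilson intervals, which cover counting error only. The TFRC shares run from 4.52% in a DMSO library to 28.0% in an E6R library.

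Barcodes with fewer than 500 genes were read as CPM of their plain UMI sums, without the TMM scaling used for cells. TFRC measured 63.9 and 46.8 CPM there under DMSO, 127 and 157 CPM under TSA, and 258 and 347 CPM under E6R. The order of the treatments was that of the cells. ACO1 was also highest under TSA in small barcodes, at 42.4 and 31.0 CPM, against 13.8 and 14.1 under DMSO and 14.4 and 5.76 under E6R. FTL was lowest in E6R replicate 2 there, at 220.3 CPM. Unlike in cells, the TSA and DMSO libraries overlapped for FTL, at 369 and 342 CPM under TSA and 383 and 362 under DMSO. For FTH1 the TSA and DMSO libraries overlapped in small barcodes, at 817 and 521 CPM under TSA and 594 and 651 under DMSO. Its plain CPM in cells overlapped as well, at 1115 and 716 under TSA and 788 and 736 under DMSO.

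TFRC is a gene that dividing cells need, because DNA synthesis uses iron enzymes such as ribonucleotide reductase. A contrast inside each library was therefore made, which the choice of genes did not use. Cells thinned to 1000 UMIs were ranked by the UMIs of 33 DNA replication genes, and the top 1 in 3 cells were compared with the bottom 1 in 3, library by library. These replication-high and replication-low cells are ranges of a score and not cell types. The mean score was 3.50 and 3.12 UMIs per cell under DMSO, 3.11 and 3.35 under TSA, and 4.10 and 4.87 under E6R, so it was highest in the E6R libraries.

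TFRC was higher in replication-high cells in 5 of 6 libraries, by a fitted log2 value of 0.20 (SE 0.10, edgeR adjusted p = 0.303), which did not pass. None of the 7 iron genes with enough counts passed in edgeR or DESeq2, and 3 had an unadjusted p under 0.05 in edgeR. These were TFRC, SLC11A2 (0.43, SE 0.18) and IREB2 (-0.34, SE 0.14). Of all genes tested, 5.08% passed at an adjusted p under 0.05. That share is no background for the 3 genes at an unadjusted p, and nothing is read from their number. With cells thinned to 2000 UMIs, TFRC passed, at 0.36 (edgeR adjusted p = 0.0255). More genes passed at that depth over all genes, 738 of 8768 against 421 of 8288.

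The level of TFRC under each treatment is given for both ranges. In replication-low cells TFRC measured 73.1 and 44.7 CPM under DMSO, 122 and 248 CPM under TSA, and 250.3 and 313 CPM under E6R. In replication-high cells it measured 61.4 and 50.9 CPM under DMSO, 202 and 257 CPM under TSA, and 302 and 326 CPM under E6R. The ratio of means of TSA to DMSO was 3.14 in replication-low cells and 4.09 in replication-high cells. That of E6R to DMSO was 4.78 and 5.58, which splits the difference on which TFRC was selected and is a description. Every treated value was above every DMSO value in the same range.

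**Figure D5:**
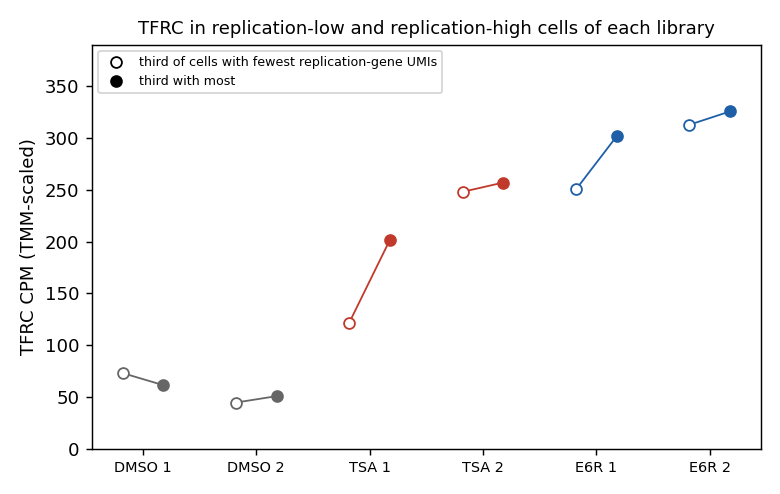
TFRC level (vertical axis, CPM after TMM scaling) in replication-low (open) and replication-high (filled) cells of each library, joined by a line. All 8 treated points, from 122 CPM upward, lie above the 4 DMSO points, which reach 73.1 CPM.

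The wider iron list held 96 genes outside the 10, of which 87 were tested. For TSA against DMSO, 26 passed in edgeR, 10 higher and 16 lower, which is 29.9% of those tested and near the background of 29.7%. Their median log2 value was 0.11. For E6R against TSA, 34 passed, 20 higher and 14 lower under E6R, or 39.1%, with a median of -0.05. For E6R against DMSO, 0 passed in edgeR and the median was 0.09, while 15 had an unadjusted p under 0.05 and DESeq2 called 1. Over all 16763 genes, DESeq2 called 338. NCOA4, at an unadjusted edgeR p of 0.0379, ranked 2420 of them, so many other genes reached that level.

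By role, TSA against DMSO called 0 of 10 uptake and reduction genes in edgeR (3 at an unadjusted p under 0.05, and 1 by DESeq2) and 0 of 5 genes for iron chaperones, export and hormone (2 unadjusted, and 0 by DESeq2). It called 2 lower of 5 mitochondrial iron transport genes, 4 higher and 5 lower of 27 iron-sulfur assembly genes, and 3 higher and 3 lower of 13 heme synthesis and transport genes. It called 1 higher of 3 heme breakdown genes, 2 lower of 7 other genes with an iron-responsive element, 1 higher and 4 lower of 8 NRF2 targets, and 1 higher of 9 HIF targets. NRF2 is a regulator of the response to oxidants, and HIF is a regulator of the response to low oxygen. As background for the unadjusted counts, FTL at an edgeR p of 0.0425 in TSA against DMSO ranked 6815 of 16763 genes.

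The called gene with the largest TSA value in each group is named here. ALAD, which catalyses an early step of heme synthesis, rose from 34.7 ± 1.72 CPM under DMSO to 168 ± 31.3 under TSA and was 30.0 ± 0.561 under E6R. FDXR, the ferredoxin reductase that supplies electrons for iron-sulfur assembly, rose from 17.5 to 69.9 CPM, and BLVRB, a biliverdin reductase, rose from 29.5 to 107 CPM. ABCB10, a transporter of the mitochondrial inner membrane, fell from 16.1 to 3.69 CPM, and SLC7A11, the cystine transporter, fell from 26.0 to 3.84 CPM. PFN2, a profilin, fell from 94.3 to 18.6 CPM and was 147 CPM under E6R. BNIP3, a HIF target, rose from 73.2 to 193 CPM. Their edgeR adjusted p-values lay between 0.000901 and 0.0136.

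For E6R against DMSO the listed genes are described without a test. GCLM, a subunit of the enzyme that starts glutathione synthesis, was at 52.3 ± 7.44 CPM under DMSO, 25.7 ± 3.51 under TSA and 24.9 ± 1.20 under E6R, a log2 value of -1.07 (SE 0.22) for E6R against DMSO. EGLN3, an oxygen-sensing hydroxylase and HIF target, was at 16.8 under DMSO and 31.7 CPM under E6R. HSPA9, the mitochondrial chaperone used in iron-sulfur transfer, was at 273 and 433 CPM. ALAS1, the first enzyme of heme synthesis, was at 23.0 and 31.4 CPM, and BLVRB at 29.5 and 19.7 CPM. PCBP1, an iron chaperone, was at 84.6 and 122 CPM, SLC39A14, a transporter of iron and zinc, at 123 and 156 CPM, and EPAS1, which encodes a HIF subunit, at 29.7 ± 30.7 and 53.6 ± 56.9 CPM, where the SDs exceed the difference.

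Among 7514 genes with a mean of at least 20 CPM, the ones whose profile over the 6 libraries was nearest to that of TFRC were SGK1, BZW2, HIST1H4C, ATP7A and MCM3. Nearness is the root mean square difference of log2 CPM after each gene was centred on its mean, and it was 0.63, 0.64, 0.69, 0.73 and 0.73, against a median of 1.21 for all genes compared. A flat profile would have 1.19, so that median is a weak standard. BZW2 measured 103 and 68.1 CPM under DMSO, 163 and 152 CPM under TSA, and 216 and 227 CPM under E6R. Like TFRC it had the order DMSO, TSA, E6R without overlap, but over a narrower range. MCM3 had that order without overlap too, at 169 and 96.4 CPM under DMSO, 182 and 204 under TSA, and 393 and 305 under E6R. For SGK1, HIST1H4C and ATP7A the TSA and E6R libraries overlapped, and HIST1H4C was highest in TSA replicate 2, at 1130 CPM.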

How the data were processed

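Per the labels' protocols, libraries came from Seq-Well S3, in which each cell shares a microwell with a bead that carries a barcode. The deposited matrices hold UMI counts per gene and barcode, not normalized. The submitters' processing notes name STARsolo 2.7.9a and the build GRCh38; its settings, the annotation, the strand rule and the choice of barcodes are not given in the sources used here, so genes that overlap on opposite strands (TFRC, FTH1, IREB2 and FBXL5 have such neighbours) cannot be told apart.

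Counts were summed over cells per library and tested with edgeR 4.0.16 (quasi-likelihood, TMM, filterByExpr, all 6 libraries, group only, Benjamini-Hochberg over all genes at 0.05; R 4.3.3). Standard errors came from the F statistic. DESeq2 1.42.0, other scalings, no filter, a replicate block, other cell filters, thinning and leaving out each library were alternatives. Doublets were not called, and an alternative without the deepest 5% of cells stood in its place. Replication-high and replication-low cells were compared with library as a block, without the 33 scoring genes. Annotation and sequences came from GENCODE 29, which held 34645 of 36601 gene identifiers. Methods were tested on simulated data.

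The genes, lists and tests were chosen with earlier results of these data known. Named genes were all 10 members, the called gene with the largest TSA change and the largest E6R change at 20 CPM or more in each group of the wider list, and the 5 profiles nearest to TFRC. Of these, 1 gene is not reported here. With 2 libraries per group, an exact permutation test cannot go below 0.333.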

Additional observations from a re-analysis of the deposited data

Results flagged for a closer look

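For 3 genes the difference between replication-high and replication-low cells had opposite signs in every library of 2 treatments. FBXL5 had a mean log2 difference of 0.433 under DMSO and -0.860 under TSA. NCOA4 had 0.311 under DMSO, -0.127 under TSA and -0.172 under E6R. FTL had -0.388 under DMSO and 0.081 under TSA. The difference between treatments was not tested, and FBXL5 had only 8 to 20 UMIs in each of these ranges of the DMSO and TSA libraries. How many of all genes change sign in this way was not counted, so nothing is read from the number of genes.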

How the results depend on the processing

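Of 141 alternative values that answer a comparison, 120 kept their direction and size or call, and 748 of 823 values of single genes did. The number of iron genes called for TSA against DMSO stayed between 2 and 4. For E6R against DMSO, where TFRC was selected, the number is a description. It was 1 in place of 0, always TFRC, in the following alternatives with all 6 libraries. Over all genes, the calls were 1095 of 31532 with no low-count filter, 338 of 16763 with DESeq2 and 19 of 16763 with the replicate block. They were 1 of 19051 with all deposited barcodes and 1 of 16609 without mitochondrial and ribosomal protein genes. The number also moved without either E6R replicate, where 1 E6R library remained. For E6R against TSA, with 4 in the main fit, the number fell without either TSA replicate. The calls over all genes, 6408 of 16763 in the main fit, also fell there, where 1 TSA library remained. The number rose without E6R replicate 1, and to 5 with DESeq2 and with the replicate block. Calls over all genes are not given here for those rises or for the range of TSA against DMSO, so nothing is read from either. For replication-high against replication-low cells the number was 1, TFRC, with 2000 UMIs per cell, against 0. Calls over all genes rose too, to 738 of 8768 from 421 of 8288. The wider list for TSA against DMSO fell from 26 to 15 without DMSO replicate 1, 14 without TSA replicate 1 and 8 without TSA replicate 2, with a highest value of 33. It fell for E6R against TSA from 34 to 21 and 16 without TSA replicates 1 and 2, and gave 1 with DESeq2 for E6R against DMSO. The FTL to FTH1 log2 ratio for TSA against DMSO ranged from -0.125 to 0.266 when a library was left out. The cause was not tested, beyond the smaller number of libraries where one was left out.

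The TFRC share of cells was higher under TSA by 26.0 percentage points without thinning and 18.2 at 2000 UMIs, and under E6R by 35.2 and 33.8, against 9.37 and 19.7 at 1000 UMIs. Without thinning, the share differences for SLC11A2 (1.73) and FBXL5 (2.21) under TSA and FTL (4.38) under E6R changed sign, as did IREB2 under TSA (from -1.24 to 6.44) and ACO1 under E6R (from -0.255 to 2.30), whose libraries overlapped DMSO at 1000 UMIs. At 2000 UMIs HMOX1 changed sign under TSA (-0.0774) and under E6R (-0.326).

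Replicate numbers are in the labels, which do not say that same-numbered libraries share a culture or day, and with 2 numbers the data do not settle whether they pair the libraries. Same-numbered deviations correlated by 0.242 (DMSO and TSA), 0.564 (DMSO and E6R) and 0.166 (TSA and E6R) over 7515 genes. With the replicate block, 4, 1 and 5 iron genes were called for TSA against DMSO, E6R against DMSO and E6R against TSA. The 1 is TFRC, in the comparison on which it was selected, and is a description, beside 19 of 16763 genes called. Calls over all genes with the block are not given here for the other comparisons, so nothing is read from their counts. Depth limits SLC40A1 and HMOX1, which had 14 to 210 UMIs per library.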
